A study of Mus musculus with 6 samples.

Results

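The tetraspanins are a family of small membrane proteins, and their transcripts were followed here in mouse bone marrow-derived basophils (BMBAs) exposed to IL-3. Members were taken by symbol, as every row named Tspan followed by a number together with Cd9, Cd37, Cd53, Cd63, Cd81, Cd82 and Cd151. This gave 27 genes of the 37043 symbols in the count table. Both groups came from C57BL/6J wild-type bone marrow cultured for 7 days at 0.3 ng/mL of a cytokine that the study's methods give as IL-3, followed by enrichment of CD49b-bearing cells on beads. The PBS group (n = 3) then received PBS for 6 hours and the IL-3 group (n = 3) received IL-3 at 10 ng/mL for 6 hours. No other allele or agent was given in the labels, and all 6 cultures therefore shared the earlier growth in IL-3. Neither the labels nor the methods say whether that cytokine remained in the medium of the PBS group. The study describes the 3 libraries of a group as 3 cultures, and neither it nor the labels say whether these came from separate mice, so each p-value measures the spread between cultures.

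Tetraspanins cross the membrane several times and carry a large, disulphide-bonded outer loop through which they bind other membrane proteins. They gather integrins, proteases of the ADAM family and immunoglobulin-like proteins into membrane microdomains, and several of them are sorted into late endosomes, secretory granules and extracellular vesicles. In basophils the family is best known through CD63, a granule membrane protein that appears at the cell surface on degranulation and is used as an activation marker. It is also known through CD9, which the study used together with CLEC12A to sort basophils, the mature ones being high in CD9.

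Read counts summed to between 10537540 and 13999287 per library, and 16675 genes passed a filter on low counts and were tested with edgeR's quasi-likelihood test. Levels are given in CPM, a gene's count per 1000000 counts of its library after the library totals were scaled by TMM, a method that trims extreme genes before it compares libraries. A gene is called at a Benjamini-Hochberg adjusted p below 0.05. The basophil label was checked against 6 marker genes. Their summed level was 9877 to 11026 CPM in the PBS libraries and 14622 to 14837 CPM in the IL-3 libraries, led by Mcpt8 and Prss34, proteases of basophil granules. Of these 6 markers 4 were higher and 1 lower, the latter being Fcer1a, the IgE receptor alpha chain, at a log2 fold change of -0.50 (edgeR adjusted p = 2.38e-06) and named after its value was seen, while Prss34 was at 0.012 and was not called. Transcripts listed as markers of other cells were present as well, and whether basophils made some of them was not tested. The 7 monocyte and macrophage markers summed to 11460 to 12376 CPM in PBS libraries and 5985 to 6599 CPM in IL-3 libraries, most of it from Lyz2, with 6 lower and 1 higher. The 6 megakaryocyte and platelet markers summed to 1096, 1773 and 1166 CPM in PBS libraries and 600.5, 654.3 and 1128 CPM in IL-3 libraries. The groups were apart for 2 of these 6, beside 48.2% of all genes, and 4 were lower, beside 20.2%. That count rested on single libraries: it was 2 without PBS replicate 2, without IL-3 replicate 1 or without IL-3 replicate 2, and 6 without IL-3 replicate 3. Mast cell markers summed to 776 to 865 CPM and 1328 to 1465 CPM, and 3 of 5 tested were higher and 0 lower (1 lower without IL-3 replicate 3). Neutrophil markers summed to 109 to 127 CPM and 167 to 195 CPM, with 2 of 4 tested higher and 1 lower (2 lower without PBS replicate 2, IL-3 replicate 2 or IL-3 replicate 3), and eosinophil markers to 155 to 173 CPM and 95 to 136 CPM, with 3 of 5 tested lower and 1 higher. Of 4 B cell markers tested, 1 was lower, and 0 when PBS replicate 2 or 3 or IL-3 replicate 1 or 2 was left out. T and NK cell markers summed to 8.43 to 13.1 CPM in PBS libraries and 32.8 to 35.4 CPM in IL-3 libraries through Nkg7, the 1 of 3 tested that was higher. Beside the counts of each list, 18% of all genes tested were higher and 20.2% lower, and the lists are too small to read a share from. No listed marker was at 0 in all 6 libraries. Tetraspanins are made by all of these cell types, and in bulk RNA fewer cells of a type and less RNA per cell cannot be told apart. The part of these lists in the values below was not tested.

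The family did not move as one. Of the 27 members, 21 passed the filter and 12 of these were called, 57.1% of those tested beside 38.2% of all genes tested. IL-3 raised 5 members, namely Cd53, Cd9, Cd82, Cd37 and Cd63, which is 23.8% beside 18% of all genes. It lowered 7 members, namely Tspan3, Tspan13, Tspan17, Tspan4, Tspan31, Tspan32 and Tspan14, which is 33.3% beside 20.2% of all genes. The PBS and IL-3 libraries did not overlap in 14 of the 21 members, beside 48.2% of all genes. The median log2 fold change of the tested members was 0.01, and that of all genes was -0.00. Every member called higher carries a CD name and every member called lower carries a Tspan name: of the 7 CD-named members 5 were higher and 0 lower, and of the 14 Tspan-named members tested 0 were higher and 7 lower. The CD-named members had a median log2 fold change of 0.32 and the Tspan-named members one of -0.45. The grouping by name was not planned and restates these calls. The numbers of members called higher and lower depend in part on the scaling. When libraries were scaled by their totals alone, all log2 fold changes shifted by a median of -0.16, the share of calls that were higher went from 47.1% to 25.2% over all genes, and 3 members were higher and 9 lower.

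**Figure D1:**
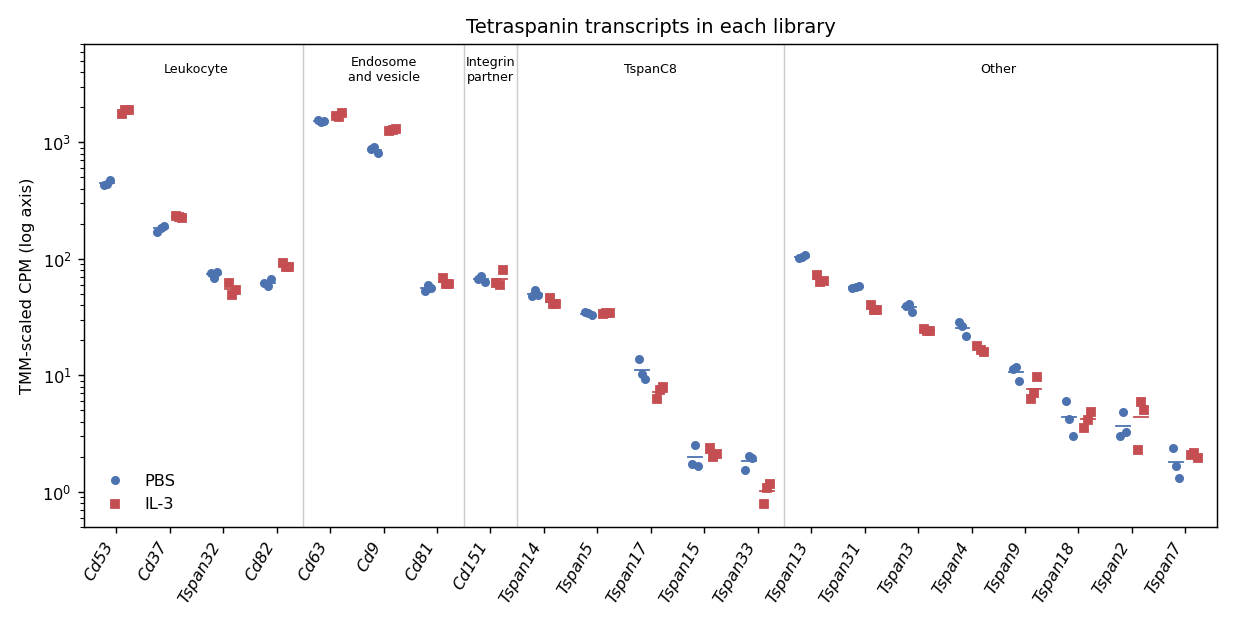
The level of each of the 21 tested tetraspanins in each library, in TMM-scaled CPM on a log axis, ordered by role group. Blue circles are the 3 PBS and red squares the 3 IL-3 libraries, and short lines are group means. Cd53 shows the widest gap, from 426.9 to 472.0 CPM in PBS to 1749.0 to 1910.7 CPM in IL-3 libraries, while Tspan5 lies at 32.7 to 35.1 CPM in all 6.

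Cd53, a tetraspanin found across leukocytes that stabilises L-selectin at the cell surface, changed most among the members called. It was at 426.9, 435.4 and 472.0 CPM in the 3 PBS libraries and at 1749.0, 1881.7 and 1910.7 CPM in the 3 IL-3 libraries. The lowest IL-3 library was thus far above the highest PBS library. The mean went from 444.8 ± 24 (SD, n = 3) to 1847 ± 86.2 CPM (SD, n = 3), a log2 fold change of 2.05 (SE 0.0525, 95% interval 1.94 to 2.17; edgeR adjusted p = 4.7e-14), or 4.15-fold. This was the 183rd highest log2 fold change of the 16675 genes tested. Cd53 was the 1 member to pass when the fold itself had to exceed 1.5. The gene lies on the minus strand of chromosome 3 at 106759921 to 106790149 (GRCm38), its exons overlap no other annotated gene, and none of its 50-base stretches recur in the transcripts of another gene. The 250 bases before its RefSeq transcription start (GRCm38.p6, chr3:106790150-106790399, minus strand), shown because this gene carried the widest change of the family, read 5′ to 3′ as follows.
Cd53: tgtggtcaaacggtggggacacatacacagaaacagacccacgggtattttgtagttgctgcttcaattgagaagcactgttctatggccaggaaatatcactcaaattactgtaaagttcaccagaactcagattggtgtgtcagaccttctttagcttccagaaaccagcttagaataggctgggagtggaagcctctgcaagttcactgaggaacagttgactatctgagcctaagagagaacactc

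The other leukocyte members moved less and not in one direction. Cd82, known as KAI1 and as a metastasis suppressor, was at 62.3, 58.4 and 66.9 CPM in PBS and at 92.4, 85.9 and 85.5 CPM in IL-3 libraries, without overlap. Its log2 fold change was 0.49 (SE 0.0689; edgeR adjusted p = 3.27e-05), or 1.41-fold. Cd37, a regulator of B cells and antigen-presenting cells, was at 169.5, 185.2 and 192.2 CPM in PBS and at 232.7, 227.7 and 224.1 CPM in IL-3 libraries. These did not overlap either, and the log2 fold change was 0.32 (SE 0.0579; edgeR adjusted p = 0.000341). With libraries scaled by their totals, Cd37 was at 0.16 with an adjusted p of 0.0579. Tspan32, a haematopoietic member also called TSSC6 that restrains T cell responses, went the other way. It was at 76.2, 68 and 77.4 CPM in PBS and at 61.5, 49.1 and 54.5 CPM in IL-3 libraries, and its log2 fold change was -0.43 (SE 0.084; edgeR adjusted p = 0.000763). In all, 3 of the 4 leukocyte members rose and 1 fell, beside 18% and 20.2% of all genes, a group too small to read a share from.

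Among the 3 members of late endosomes, granules and vesicles, Cd9 and Cd63 were called higher, beside 18% of all genes, and the call of Cd63 was not firm. Cd9 was at 874.3, 907.4 and 818.8 CPM in PBS and at 1249.4, 1269.9 and 1299.1 CPM in IL-3 libraries. The mean rose from 866.8 ± 44.8 to 1273 ± 25 CPM (SD over 3 libraries), and the log2 fold change was 0.55 (95% interval 0.45 to 0.65; edgeR adjusted p = 1.26e-07). The IL-3 libraries all lay above the PBS libraries. Cd9 lies on the minus strand of chromosome 6 at 125460266 to 125494791 and Cd63 on the plus strand of chromosome 10 at 128900989 to 128912822 (GRCm38). Cd63, the granule membrane marker, was at 1572.0, 1496.1 and 1517.6 CPM in PBS and at 1679.9, 1642.9 and 1787.0 CPM in IL-3 libraries. The groups did not overlap, but the difference was small: a log2 fold change of 0.16 (95% interval 0.062 to 0.25; edgeR adjusted p = 0.0107), or 1.11-fold. The call was lost without PBS replicate 2 (adjusted p = 0.0524) and without IL-3 replicate 3 (adjusted p = 0.0536), and with libraries scaled by their totals the sign turned, at -0.0065. Cd81, a broadly expressed member found in extracellular vesicles, was at 52.8, 60 and 56.6 CPM in PBS and at 68.4, 61 and 60.9 CPM in IL-3 libraries. The ranges did not overlap, yet the log2 fold change of 0.17 (95% interval 0.0057 to 0.33) missed the threshold at an edgeR adjusted p of 0.0973.

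Cd63 has a processed copy, Cd63-ps. Of the 50-base stretches of Cd63 transcripts, 11% recur on the same strand, mainly in Cd63-ps, so reads could be split between the 2 rows. Cd63-ps was at 237.4 ± 4.48 CPM in PBS libraries and 253.5 ± 14.1 CPM in IL-3 libraries (SD, n = 3 each), with a log2 fold change of 0.10 (edgeR adjusted p = 0.196). With both rows summed before the fit, a choice made after the data were seen, the log2 fold change was 0.15 (adjusted p = 0.0139). For Cd9, 5.67% of the stretches recur on the same strand, mainly in Gm16754 (2.03 CPM in PBS, 2.219 CPM in IL-3), and 12.9% recur on the opposite strand, mainly in Gm26728 (2.58 and 2.894 CPM). Both of these rows were far below Cd9 in level.

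**Figure D2:**
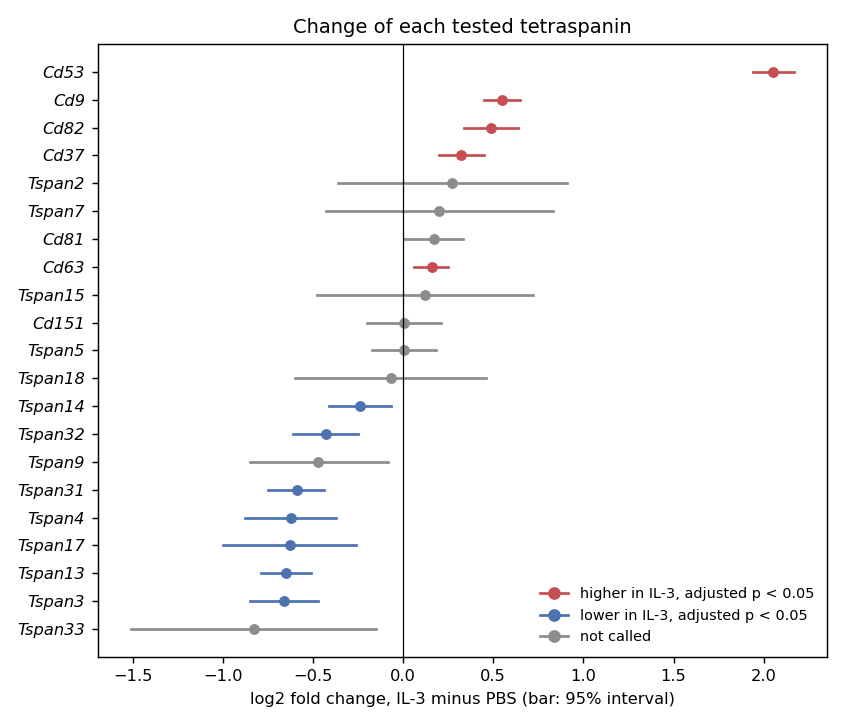
The log2 fold change of IL-3 over PBS for each tested tetraspanin, with its 95% interval from the edgeR fit, coloured by call. The 5 members called higher run from 0.16 (Cd63) to 2.05 (Cd53) and the 7 called lower from -0.66 (Tspan3) to -0.24 (Tspan14), while wide intervals belong to members of low level such as Tspan33 and Tspan2.

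Cd151, which holds laminin-binding integrins in the membrane, was at 66.5, 70.9 and 63.1 CPM in PBS and at 61.6, 59.6 and 79.7 CPM in IL-3 libraries. The groups overlapped, since IL-3 replicate 3 was above all PBS libraries and the other two were below them. The log2 fold change was 0.0066 (95% interval -0.20 to 0.21; edgeR adjusted p = 0.966), and -0.14 without IL-3 replicate 3 (adjusted p = 0.21). IL-3 replicate 3 was also the IL-3 library with the highest megakaryocyte and platelet sum, 1128 CPM beside 600.5 and 654.3 CPM. In PBS replicates 1, 2 and 3 that sum was 1096, 1773 and 1166 CPM, so PBS replicates 2 and 3 had higher sums and lower Cd151 levels than IL-3 replicate 3. The bearing of that sum on Cd151 was not tested.

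The TspanC8 members share a cysteine pattern in the outer loop, bind the protease ADAM10 and steer it out of the endoplasmic reticulum and toward particular substrates. Of the 6, 5 were tested, 0 were higher and 2 were lower, so that 40% were called beside 38.2% of all genes, a share near that of the background. Tspan17 was at 13.9, 10.3 and 9.34 CPM in PBS and at 6.22, 7.41 and 7.99 CPM in IL-3 libraries, a log2 fold change of -0.63 (SE 0.174; edgeR adjusted p = 0.00922). These groups did not overlap, but without PBS replicate 1, the highest library, the value was -0.44 with an adjusted p of 0.0638. Tspan14 was at 47.9, 54 and 48.8 CPM in PBS and at 46, 41.1 and 41 CPM in IL-3 libraries, a log2 fold change of -0.24 (SE 0.0814; edgeR adjusted p = 0.0305). This call was the least firm of the 7, because it was lost without PBS replicate 2 (adjusted p = 0.129), without IL-3 replicate 2 (0.113), without IL-3 replicate 3 (0.105) and with DESeq2 (0.0546).

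Tspan33, also known as Penumbra and first studied in erythroid cells, was at 1.55, 2.02 and 1.94 CPM in PBS and at 0.79, 1.08 and 1.16 CPM in IL-3 libraries. The groups did not overlap, and the log2 fold change was -0.83 (95% interval -1.51 to -0.15), but these levels rest on 8 to 23 counts per library and the edgeR adjusted p was 0.0509, with a range of 0.02 to 0.188 over the alternatives. Tspan5, by contrast, was at 35.1, 34 and 32.7 CPM in PBS and at 33.7, 34.5 and 34 CPM in IL-3 libraries. Its log2 fold change was 0.0055 (95% interval -0.17 to 0.18), and the groups lay over each other. Tspan15 was at 1.67 to 2.54 CPM in PBS libraries and 2 to 2.37 CPM in IL-3 libraries, with a log2 fold change of 0.12 (95% interval -0.48 to 0.72). Tspan10 had 5 counts, all in PBS replicate 3, and 0 in the IL-3 group.

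Adam10 itself rose. It was at 188.5, 167.2 and 199.2 CPM in PBS and at 233.6, 262.2 and 246.3 CPM in IL-3 libraries, without overlap, and its log2 fold change was 0.42 (SE 0.0674; edgeR adjusted p = 0.000124). The protease thus rose while Tspan14 and Tspan17 fell and Tspan5 lay within its spread. The summed level of the 6 TspanC8 members was 94.9 to 103 CPM in PBS libraries and 86 to 89.1 CPM in IL-3 libraries.

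The remaining 13 members have less shared biology, and 8 of them were tested, with 4 lower and 0 higher, beside 20.2% and 18% of all genes. Tspan13, also called NET-6, was the most abundant of these per kilobase. It was at 102.7, 103.9 and 107.3 CPM in PBS and at 72, 63.2 and 64.5 CPM in IL-3 libraries. The PBS libraries lay close together and well above the IL-3 libraries, and the mean fell from 104.6 ± 2.39 to 66.54 ± 4.74 CPM (SD over 3 libraries). The log2 fold change was -0.65 (SE 0.0657, 95% interval -0.79 to -0.51; edgeR adjusted p = 8.85e-07), the smallest adjusted p of the members called lower. The gene lies on the minus strand of chromosome 12 at 36014557 to 36042500 (GRCm38) and overlaps no other annotated gene. The 250 bases before its RefSeq start (GRCm38.p6, chr12:36042479-36042728, minus strand), shown as the counterpart to Cd53 among the members that fell, read 5′ to 3′ as follows.
Tspan13: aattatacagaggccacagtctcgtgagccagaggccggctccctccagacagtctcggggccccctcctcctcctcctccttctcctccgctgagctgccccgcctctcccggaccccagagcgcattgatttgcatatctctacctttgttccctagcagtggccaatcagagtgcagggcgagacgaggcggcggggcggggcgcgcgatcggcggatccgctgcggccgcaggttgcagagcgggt

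Tspan3 was at 39.2, 41 and 35 CPM in PBS and at 25.1, 24 and 23.9 CPM in IL-3 libraries, with no overlap. Its log2 fold change of -0.66 (SE 0.0915; edgeR adjusted p = 2.88e-05) was the lowest of the members called. Tspan4, known as NAG-2 and as a marker of migrasomes, the vesicles that migrating cells leave on their retraction fibres, was at 28.8, 26.4 and 21.8 CPM in PBS and at 17.9, 16.6 and 15.7 CPM in IL-3 libraries. These groups were apart as well, with a log2 fold change of -0.62 (SE 0.121; edgeR adjusted p = 0.00067). The Chid1 gene on the other strand covers 13.4% of the exon bases of Tspan4, and Chid1 had a log2 fold change of -0.013 (adjusted p = 0.947).

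Tspan31, which was found as an amplified gene in sarcoma, was at 55.7, 56.8 and 58 CPM in PBS and at 40.1, 36.7 and 36.2 CPM in IL-3 libraries. All IL-3 libraries were below all PBS libraries, and the log2 fold change was -0.59 (SE 0.0751; edgeR adjusted p = 1.08e-05). Tspan31 overlaps Cdk4 on chromosome 10, and 641 bases or 29.2% of its exons are shared with Cdk4 on the opposite strand. Cdk4, a cell cycle kinase, was at 82.99 ± 4.95 CPM in PBS libraries and 71.03 ± 2.58 CPM in IL-3 libraries (SD over 3 libraries), and its log2 fold change was -0.23 (edgeR adjusted p = 0.0135). No source used here says how reads were assigned to strands, so reads of the shared stretch cannot be told apart and the value of Tspan31 is uncertain to that extent.

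Tspan9, a member of megakaryocytes and platelets, was at 11.3, 11.9 and 8.9 CPM in PBS and at 6.32, 7.08 and 9.7 CPM in IL-3 libraries. IL-3 replicate 3 lay inside the PBS range, and the log2 fold change of -0.47 (95% interval -0.85 to -0.085) missed the threshold at an edgeR adjusted p of 0.0515. Without that library it was -0.67 (adjusted p = 0.0111), and the library is the one with the highest platelet marker sum of its group, as given beside Cd151. Tspan2, Tspan7 and Tspan18 were lower in level, between 1.32 and 5.97 CPM in each library. Their groups overlapped and their log2 fold changes were 0.27 (95% interval -0.36 to 0.91), 0.20 (-0.43 to 0.83) and -0.07 (-0.60 to 0.46), intervals too wide to bound a moderate change. Of the 50-base stretches of Tspan18, 3.74% recur on the opposite strand, mainly in Xdh, which was at 116.8 CPM in PBS and fell to 52.74 CPM in IL-3 libraries (log2 fold change -1.15; edgeR adjusted p = 1.47e-09), and the part of such reads in the value of Tspan18 was not tested.

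The other 6 members did not pass the filter. Tspan6 had 24 counts over the 3 PBS libraries (exact 95% Poisson interval 15.4 to 35.7) and 10 over the 3 IL-3 libraries (4.8 to 18.4), with at least 2 counts in every library. Tspan10, Tspan12 and Tspan8 had 5, 4 and 4 counts in PBS, each within 1 library, and 0 in the IL-3 libraries. Tspan11 had 3 and 1 counts and Tspan1 had 1 and 1. Tspan8 and Tspan1 are known from epithelia and Tspan12 from retinal vessels. The intervals are over the summed counts of a group. Within a single library, a count of 0 was taken to allow up to 3 counts, which is 0.233 to 0.296 CPM. Apart from Tspan6, these transcripts were thus at or near the limit of detection in BMBAs at this depth. Tspan6 was low but found in every library, at 0.167 to 1.06 CPM. No fold is given for any of the 6. These intervals and limits cover counting error only.

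Levels can be compared between members only per length, and Cd9, Cd63 and Cd53 then made up most of the family in both groups. Per kilobase of exon in PBS, Cd9 was at 424 ± 21.9 CPM per kb and Cd63 at 415 ± 10.6 CPM per kb (SD, n = 3 each), with ranges that overlapped. Cd53 followed at 255 ± 13.8, and then came Cd37 at 51.8 ± 3.3 and Tspan13 at 42.3 ± 0.968 CPM per kb, each apart from the next. In IL-3 libraries Cd53 was first at 1060 ± 49.5 CPM per kb, ahead of Cd9 at 623 ± 12.2 and Cd63 at 463 ± 20.3, with no overlap between them. Cd37 stayed in the fourth place at 64.8 ± 1.23, followed by Cd82 at 29.3 ± 1.29, whose range overlapped that of Tspan13 at 26.9 ± 1.92 CPM per kb. Over the 16217 genes with a length, Cd53 was the 168th most abundant in PBS and the 42nd in IL-3 libraries by level per kb, Cd9 the 100th and the 69th, and Cd63 the 103rd and the 94th.

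**Figure D3:**
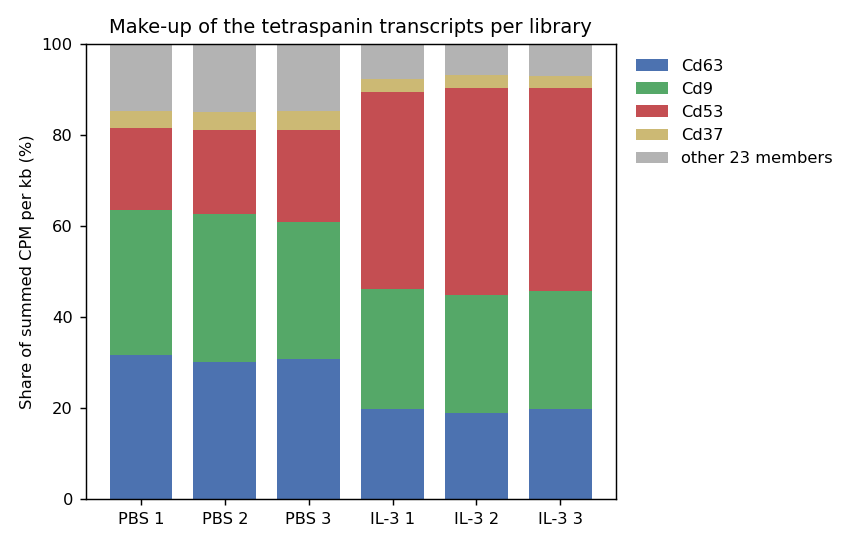
The share of each of 4 members, and of the remaining 23 summed, in the tetraspanin total of each library, in percent of summed CPM per kb of exon. Cd53 grows from 18.2 to 20.3% in the PBS libraries to 43.4 to 45.5% in the IL-3 libraries.

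The make-up of the family therefore shifted toward Cd53. Its share of the summed level per kb was 18.2%, 18.4% and 20.3% in the PBS libraries and 43.4%, 45.5% and 44.7% in the IL-3 libraries. The share of Cd63 went from between 30 and 31.7% to between 18.8 and 19.8%. Its own level in IL-3 libraries was 1.11-fold that in PBS libraries, a call that was not firm. Cd9 went from between 30 and 32.7% to between 25.9 and 26.4%. Together these 3 members held 81.1 to 81.5% in PBS and 89.5 to 90.4% in IL-3 libraries. The order depends on the length used. With the mean length of a gene's protein-coding transcripts, Cd63 was first in both groups at 1569 ± 40.2 and 1748 ± 76.8 CPM per kb, with 49.9% and 39.4% of the family, while Cd53 went from 8.12% to 23.9%. The same 5 members came first in IL-3 libraries with either length.

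Summed over the 27 members without regard to length, the family was at 3650, 3636 and 3600 CPM in the PBS libraries and at 5453, 5524 and 5750 CPM in the IL-3 libraries, or 0.36 to 0.365% and 0.545 to 0.575% of the scaled counts. Most of the gain came from Cd53. Without it the sums were 3128 to 3223 CPM and 3642 to 3839 CPM, still without overlap between the groups. These sums are given as a description.

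**Figure D4:**
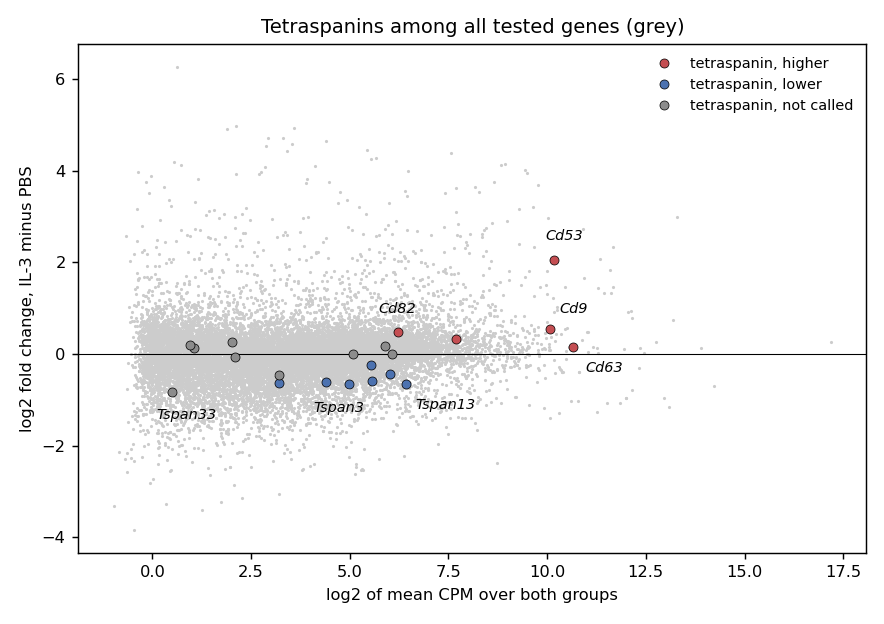
The log2 fold change of every tested gene against the log2 of its mean CPM over both groups, with the 21 tetraspanins coloured by call over all 16675 genes in grey. Cd53, Cd9 and Cd63 lie at the right among the most abundant genes, and the members called lower lie between Tspan17 and Tspan13 in level.

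Several tetraspanin genes lie near each other in the genome, and the log2 fold changes of such pairs are given here. On chromosome 7, Cd151 and Tspan4 are 3.8 kb apart with 1 protein-coding gene between them, with log2 fold changes of 0.0066 and -0.62. Also on chromosome 7, Tspan32 and Cd81 are 33.1 kb apart, with -0.43 and 0.17. On chromosome 2, Tspan18 and Cd82 are 84.6 kb apart, with -0.07 and 0.49. Tspan11 and Tspan9 on chromosome 6 are 7.4 kb apart, and Tspan11 was too low to test. Of the members in these pairs, Cd82, Tspan32 and Tspan4 were called. The difference within a pair was not tested.

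The promoter windows were searched for 2 motifs. TTCNNNGAA is the core of sites bound by STAT5, a factor that the IL-3 receptor activates, and CACGTG is an E-box read by MITF and by TFE3, a regulator of lysosomal genes. Both read the same on either strand and the 2 do not overlap each other in any window. RefSeq windows of 300 bases (250 before and 50 after the start, GRCm38.p6) were found for 26 of the 27 members, 36 windows in all. TTCNNNGAA was in 2 of these 36 (5.56%) and in 8.3% of all 32851 windows, and CACGTG was in 2 of 36 (5.56%) and in 7.15% of all. The members' shares were thus not above those of all windows. The matches lay in Tspan9 and at 1 start of Cd82 for TTCNNNGAA, and in Cd37 and Tspan4 for CACGTG, that is in 2 members that rose, 1 that fell and 1 that was not called. Neither stretch printed above, of Cd53 or of Tspan13, holds a match. For 3 of the matches the surrounding 30 bases before a start are shown with the motif in capitals, so that the letters behind these counts can be seen. They are chr7:45239050-45239079 (minus strand) for Cd37, chr7:141476317-141476346 (plus strand) for Tspan4 and chr6:128095610-128095639 (minus strand) for Tspan9, each read 5′ to 3′. A match is a stretch of letters and no measure of binding.
Cd37: agtcccaggaccCACGTGagtggaagtcca
Tspan4: cccccatggagcCACGTGcagagccacgag
Tspan9: cttggatttcTTCAGAGAAagaaatggagg

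Genes that work with tetraspanins were followed in a list of 19, of which 18 were in the table and 15 were tested. IL-3 raised 3 of them and lowered 5, or 20% and 33.3%, beside 18% and 20.2% of all genes. Of the partners tested, the retinal tetraspanin Rom1, which the symbol rule does not take in, had the smallest adjusted p. It was at 23.6, 23.8 and 25.6 CPM in PBS and at 5.92, 7.5 and 7.68 CPM in IL-3 libraries, far apart, a log2 fold change of -1.78 (95% interval -2.06 to -1.50; edgeR adjusted p = 2.32e-08), or 3.43-fold lower. In the GRCm38 annotation 0 other genes overlap it. Photoreceptor disc rims are the known site of its protein, and its partner there, Prph2, had 1 count in the 6 libraries.

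The integrin chains that tetraspanins bind moved in both directions. Itgb1, the integrin beta 1 chain, was at 167.5, 188.2 and 171.2 CPM in PBS and at 251.8, 270.4 and 291.9 CPM in IL-3 libraries, a log2 fold change of 0.63 (SE 0.0649; edgeR adjusted p = 1.24e-06). Itga4, which pairs with it to form the receptor VLA-4 for VCAM-1 and fibronectin, was at 46.9, 42.8 and 41.6 CPM in PBS and at 22.9, 26 and 21.6 CPM in IL-3 libraries, a log2 fold change of -0.90 (SE 0.0949; edgeR adjusted p = 1.59e-06). Neither gene's groups overlapped. The remaining called partners are named after their values were seen: Pdcd6ip, which encodes the vesicle-sorting protein ALIX, was higher at 0.25, and Ptgfrn, a CD9 and CD81 partner, Itga6, a laminin receptor chain, and the protease Adam17 were lower at -0.96, -0.69 and -0.25 on the log2 scale. The other 7 tested partners were not called, among them 5 of the 6 endosome and vesicle sorting genes. Igsf8, the other immunoglobulin-like partner of CD9 and CD81, had a log2 fold change of 0.024 (95% interval -0.12 to 0.17).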

How the data were processed

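Poly(A) RNA of 6 BMBA libraries, 3 per group as the labels assign them, was analysed. The authors deposited raw read counts per gene symbol in 1 table. Per the labels and the study's methods, cDNA was amplified and fragmented, reads were trimmed with Cutadapt 3.4 and aligned with Bowtie2 to reference RNA. The submitters' processing notes name GRCm39, while the methods name the GRCm38 assembly. No molecular identifiers are described, and the treatment of strand and of multiply mapped reads was not given in the sources used here.

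From the counts, filterByExpr, TMM and the quasi-likelihood F test of edgeR 4.0.16 (R 4.3.3) compared IL-3 with PBS, with group as the single term. P-values were Benjamini-Hochberg adjusted over all 16675 genes tested and called below 0.05. CPM used TMM-scaled totals. Coordinates, lengths and overlaps came from GENCODE M21 (GRCm38), which held 96.12% of the symbols and all 27 members, and promoters from RefSeq GRCm38.p6. The scripts were tested on simulated counts. No pair of libraries was alike within sampling noise (lowest chi-square per degree of freedom 2.75). Library totals of 10537540 to 13999287 put 3 counts at 0.233 to 0.296 CPM.

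All members are named. Of the partners, the 3 with the smallest adjusted p and Adam10 are described, others as said beside them. Of each marker list at most the most abundant gene is named, apart from Mcpt8, Prss34, Fcer1a and Itga2. Members and lists were chosen with earlier results of these data known. Alternatives changed the scaling, the filter, the test (DESeq2 1.42.0, limma-voom 3.58.1, edgeR's exact test), the threshold, the replicate term and the length, and left out each library in turn.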

Additional observations from a re-analysis of the deposited data

How the results depend on the processing

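The 21 tested members had 316 values under alternatives in all, and 285 kept the direction and the side of the threshold. Of the rest, 8 were weaker, 10 stronger and 13 reversed. Of the 12 called members, 8 kept direction and call under each of these: Cd53, Cd82, Cd9, Tspan13, Tspan3, Tspan31, Tspan32 and Tspan4. These values leave out the 2 other thresholds and the fold of 1.5 to be exceeded, under which the members were only counted. Cd53 ran from 1.89 to 2.1. With libraries scaled by their totals, 1698 genes were higher, and 3 members, since Cd37 and Cd63 were lost, while Tspan9 (adjusted p = 0.00796) and Tspan33 (0.02) were called lower. TMM was also recomputed after removal of genes at an adjusted p below 0.1, over 3 rounds. Tspan9 and Tspan33 were called lower with it (0.0414 and 0.0452) and with edgeR's exact test (0.0371 and 0.0486). Tspan33 was also called with the filter at 1 CPM (0.049). Tspan9 was called with no filter (0.0373), or when either PBS replicate 3 (0.0255) or IL-3 replicate 3 (0.0111) was left out. Scaling by totals, with its median shift of -0.16, also turned Cd151 (-0.16), Tspan5 (-0.16), Igsf8 (-0.14), Tspan15 (-0.042) and Cd63 (-0.0065). Where a fold of 1.5 had to be exceeded (glmTreat), 709 genes were higher and 883 lower, 1 member was higher and 0 lower, and 0 partners were higher and 3 lower. Recomputed TMM turned Cd151 (-0.018) and Tspan5 (-0.019). Leaving out each library gave 4 to 5 members higher and 6 to 8 lower. It turned the sign for Cd151 (-0.14 to 0.083), Tspan18 (-0.28 to 0.22), Tspan5 (-0.021 to 0.03) and Igsf8 (-0.034 to 0.064), none of which was called. Of 288 counts over marker lists, 265 stayed within 1.5 times, which includes counts of 0 that stayed at 0.

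Same-numbered libraries of the groups did not deviate together (r = -0.00869, -0.0162 and -0.0224 over genes), and 0 of 6 libraries correlated best with their own number. No pairing by number was thus seen. The check cannot tell whether same-numbered cultures shared a mouse or a preparation. A fit with the replicate number as a block called 2842 genes higher and 3247 lower, and 5 members higher and 7 lower as before, and gave Cd151 -0.0038. It changed no call of a member.

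With 3 libraries a group, members of low level had wide intervals, and moderate changes in Tspan2, Tspan7, Tspan15 and Tspan18 lie within them. Small changes such as that of Cd63 turn on the scaling. Alignment to transcript sequences with unstated strand handling limits members that share sequence with genes of the other strand, by share mainly Tspan31, Cd9 and Tspan4 and to a lesser extent Cd151, Tspan32 and Tspan18, and unstated handling of multiply mapped reads limits Cd63, which shares it with Cd63-ps on the same strand.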
